A study of Mus musculus with 24 samples.

Results

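Chemokine receptors are membrane proteins that steer leukocytes along gradients of secreted chemokines. The 7 receptor genes followed here, Ccr1, Ccr2, Ccr7, Cx3cr1, Cxcr3, Cxcr4 and Cxcr6, were taken by their symbols from a count table of 56205 mouse genes, and all 7 were measured. They were read in whole-liver RNA of C57BL/6J mice of both sexes, that had been kept for 20 weeks either on FFD, a high-fat diet rich in palm oil, fructose and cholesterol, or on the matched control diet. Each diet has 12 libraries, numbered as replicates 1 to 12, and the study design gives 6 mice per diet for each sex. The animals were young adults when the diets began, the labels name no mutation or transgene in either group, and poly(A)-selected RNA was sequenced. FFD is a dietary model of steatohepatitis, in which lipid loading, inflammation and fibrosis develop together.

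The receptors couple to Gi proteins, and their ligands in the liver come from macrophages, stellate cells, endothelium, hepatocytes and the leukocytes themselves. Ccr2 brings classical monocytes out of the blood towards Ccl2, and Cx3cr1, the receptor of the membrane-bound chemokine Cx3cl1, marks non-classical monocytes and many monocyte-derived macrophages. Ccr1 is carried by monocytes and neutrophils, Ccr7 by dendritic cells on their way to lymph nodes and by naive T cells, and Cxcr4 by most leukocytes. Cxcr3 and Cxcr6 are known from effector T cells, NK cells and, for Cxcr6, the lymphocytes that patrol the liver sinusoids. In bulk liver RNA, fewer cells of a type and less RNA per cell cannot be told apart.

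In the GRCm38 build, 4 of the 7 genes lie on chromosome 9. Cx3cr1 (ENSMUSG00000052336) spans 119901616 to 120069879 on the minus strand, Cxcr6 (ENSMUSG00000048521) 123806475 to 123811760 on the plus strand, Ccr1 (ENSMUSG00000025804) 123962124 to 123968692 on the minus strand and Ccr2 (ENSMUSG00000049103) 124101950 to 124113557 on the plus strand. Cxcr4 (ENSMUSG00000045382) is on chromosome 1 at 128588199 to 128592293 on the minus strand, Ccr7 (ENSMUSG00000037944) on chromosome 11 at 99144196 to 99155077 on the minus strand, and Cxcr3 (ENSMUSG00000050232) on chromosome X at 101731535 to 101734269 on the minus strand. All 7 are protein-coding. Cxcr6 sits inside Fyco1, which is transcribed from the opposite strand and shares 0 exonic bases with it. Cx3cr1 overlaps several genes. Among them Gorasp1 and Csrnp1, on its own strand, had medians of 798 and 214 counts and share 0 exonic bases with it. Gm33858, on the opposite strand, shares 78 exonic bases with Cx3cr1 and had 0 to 1 counts. Of the 50-base stretches of the Ccr2 transcripts, 1.91% also occur in transcripts of other genes, so reads at those places could have been split by the counting. For Cx3cr1 the share was 1.06%, and for the other 5 receptors it was 0.

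RefSeq start sites were held for 6 of the 7 genes, and 3 of the promoter windows, those of Cxcr4, Ccr1 and Cxcr6, lie outside annotated exons. They are shown because they belong to receptors with 3 different outcomes on the diet: no overlap between the diets, a rise from almost no reads, and no call. Each runs 5′ to 3′ on the strand of the gene and leads up to the RefSeq start of the transcript, that of Cxcr6 stopping 2 bases short of it where an annotated exon begins, with RUNX letters (TGTGGT, or ACCACA on the other strand) and PU.1 core letters (GAGGAA, or TTCCTC) in capitals. The windows are chr1:128592300-128592549 for Cxcr4, chr9:123968693-123968942 for Ccr1 and chr9:123806227-123806474 for Cxcr6.
Cxcr4: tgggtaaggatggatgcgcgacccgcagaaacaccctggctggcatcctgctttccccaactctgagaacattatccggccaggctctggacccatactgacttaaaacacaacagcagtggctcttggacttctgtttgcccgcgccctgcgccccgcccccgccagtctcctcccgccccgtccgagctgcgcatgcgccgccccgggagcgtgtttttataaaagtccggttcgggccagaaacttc
Ccr1: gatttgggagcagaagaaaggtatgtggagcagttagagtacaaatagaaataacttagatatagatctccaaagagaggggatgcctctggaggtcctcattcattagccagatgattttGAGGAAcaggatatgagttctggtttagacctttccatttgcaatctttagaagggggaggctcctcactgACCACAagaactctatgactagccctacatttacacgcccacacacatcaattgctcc
Cxcr6: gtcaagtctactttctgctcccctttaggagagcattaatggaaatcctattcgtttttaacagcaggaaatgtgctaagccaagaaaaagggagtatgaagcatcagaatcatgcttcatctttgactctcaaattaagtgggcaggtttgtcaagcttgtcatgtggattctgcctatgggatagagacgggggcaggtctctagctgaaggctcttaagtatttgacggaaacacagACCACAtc

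RUNX letters occurred within 250 bases before the start in 4 of the 6 windows, those of Cx3cr1, Cxcr6, Ccr1 and Cxcr3, and 14% of 32536 promoters of the same length hold them on either strand. PU.1 core letters occurred in 2 windows, those of Ccr1 and Cxcr3, against 23.4% of all promoters. The RUNX letters of Ccr1 stand at bases -58 to -53 from the start and its PU.1 letters at -129 to -124, while the RUNX letters of Cxcr6 stand at -10 to -5. Letters for T-box factors (GGTGTGA), AP-1 (TGANTCA), the interferon-stimulated response element and a STAT site (TTCNNNGAA) were in 0 of the 6 windows, against 3.33%, 6.73%, 2.98% and 7.04% of all promoters. No pair of the 6 searched motifs shared bases in these windows. A match is a description of the letters and no evidence that a factor binds there.

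Libraries held 14468418 to 22112552 counts on genes, and values are given as CPM, the counts of a gene per 1000000 counts of its library, after scaling by the TMM method, which ranged from 0.994 to 1.34 on FFD and from 0.679 to 1.01 on control. At this depth 3 counts equalled 0.148 CPM on FFD and 0.175 CPM on control on average. In replicates 1 to 6 of both diets Xist had 2664 to 6285 counts and in replicates 7 to 12 it had 0 to 3. These are called the Xist-high and Xist-low libraries, with 6 libraries per diet in each, because the labels do not give the sex of a library. FFD replicate 3 stood apart, with 1242 counts of S100a8, 1537 of S100a9 and 652 of Chil3, the highest of the 24 libraries, so the diet differences of the receptors, and the marker lists it changes, are also given without it. Nothing in the labels ties a library to an animal, so p-values measure the spread between these libraries.

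On FFD, 5 of the 7 receptors rose and 0 fell, where a call needed a log2 fold change of more than 0.5 in size together with an adjusted p no higher than 0.01. Across all 17913 genes tested, 13.2% were called higher and 4.99% lower. Cx3cr1 rose most, by 3.01 on the log2 scale, followed by Ccr2, Cxcr4, Ccr1 and Ccr7, while Cxcr3 and Cxcr6 did not pass the test. None of the 7 had a lower level at an unadjusted p under 0.05. DESeq2 also called 5 higher and 0 lower, against 14.7% and 5.44% of all genes. The median log2 fold change was 1.81 over the 7 receptors and -0.03 over all genes tested.

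**Figure D1:**
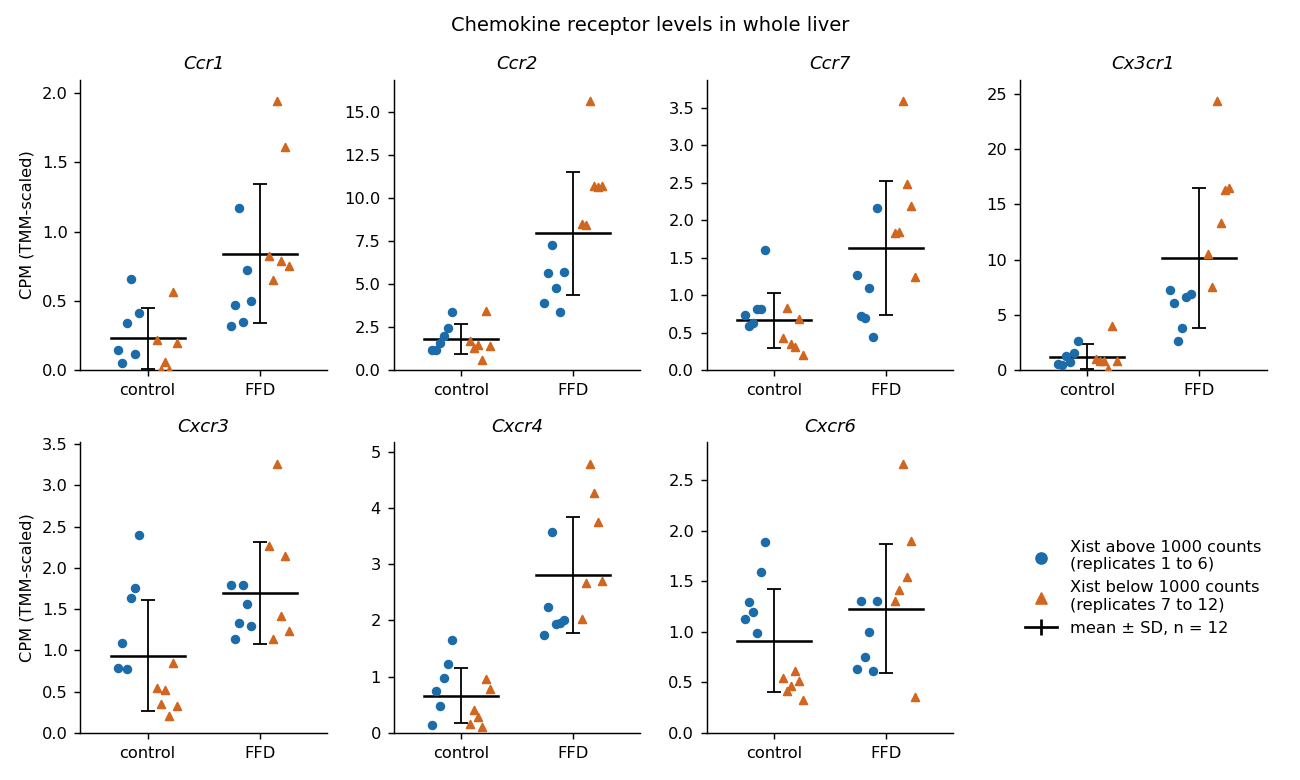
TMM-scaled CPM (vertical axes, linear, each from 0) of the 7 receptors in the 12 control and 12 FFD libraries. Circles are Xist-high libraries, triangles Xist-low libraries, and black bars the mean ± SD of each diet (n = 12). All FFD libraries lie above all control libraries for Cxcr4 (lowest FFD 1.74, highest control 1.66 CPM), and the diets overlap for the other 6.

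Of the monocyte and macrophage receptors, Cx3cr1 had 50 to 576 counts on FFD and 1 to 71 on control. Its level ran from 2.66 CPM over a median of 7.36 to 24.3 CPM on FFD, and from 0.102 over 0.844 to 4.02 CPM on control. The 10 highest FFD libraries exceeded every control library, and the 2 FFD libraries below the highest control were FFD replicates 3 and 4. Mean levels were 10.1 ± 6.33 CPM on FFD and 1.23 ± 1.09 CPM on control (SD, n = 12 each), a log2 fold change of 3.01 ± 0.40 (SE, edgeR's quasi-likelihood test, Benjamini-Hochberg adjusted p = 3.40e-06). Without FFD replicate 3, which had the lowest Cx3cr1 level of the FFD libraries, the log2 fold change was 3.11 (edgeR's adjusted p = 1.53e-06).

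Ccr2, the receptor through which monocytes leave the bone marrow and enter inflamed tissue, had 61 to 369 counts on FFD and 6 to 73 on control. In CPM it ran from 3.40 over a median of 7.83 to 15.6 on FFD, and from 0.611 over 1.51 to 3.46 on control. Only FFD replicate 5 reached down into the control range, and the other 11 FFD libraries lay above it. The means were 7.94 ± 3.56 and 1.80 ± 0.877 CPM (SD, n = 12 each), with a log2 fold change of 2.12 ± 0.26 (SE, edgeR's quasi-likelihood test, Benjamini-Hochberg adjusted p = 1.57e-06). Leaving out FFD replicate 3 gave 2.14 (edgeR's adjusted p = 2.12e-06).

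Ccr1, which binds Ccl3, Ccl5, Ccl6 and Ccl9, had the lowest level per kilobase of the 7 receptors on both diets, with 6 to 46 counts on FFD. On control it had 0 to 12 counts, with 3 or fewer in 7 of the 12 libraries and 0 in 2 of them, so its control level was set by a few reads. Its level ran from 0.317 over a median of 0.739 to 1.94 CPM on FFD and from 0 over 0.172 to 0.656 CPM on control. The ranges overlapped, with 7 FFD libraries above the highest control, and edgeR's own filter on low counts removed Ccr1 from the test. The log2 fold change was 1.81 ± 0.44 (SE, edgeR's quasi-likelihood test, Benjamini-Hochberg adjusted p = 0.00195), from mean levels of 0.841 ± 0.50 and 0.230 ± 0.219 CPM (SD, n = 12 each). It was 1.75 without FFD replicate 3 (edgeR's adjusted p = 0.00301), the library with the third highest Ccr1 level.

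Cxcr4, the broadly expressed receptor of Cxcl12, had 33 to 113 counts on FFD and 1 to 36 on control. It ran from 1.74 over a median of 2.44 to 4.78 CPM on FFD and from 0.102 over 0.612 to 1.66 CPM on control. All 12 FFD libraries stood above all 12 control libraries, a separation found for 1.48% of the 17913 genes in this direction. The means of 2.80 ± 1.03 and 0.664 ± 0.487 CPM (SD, n = 12 each) gave a log2 fold change of 2.05 ± 0.33 (SE, edgeR's quasi-likelihood test, Benjamini-Hochberg adjusted p = 2.82e-05), and 2.01 without FFD replicate 3 (edgeR's adjusted p = 4.60e-05).

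Ccr7, the lymph node homing receptor, had 8 to 85 counts on FFD and 3 to 35 on control. Its level ran from 0.446 over a median of 1.55 to 3.59 CPM on FFD and from 0.197 over 0.652 to 1.61 CPM on control. The diets overlapped, with 6 FFD libraries above the highest control, which was control replicate 6. From 1.63 ± 0.901 and 0.667 ± 0.368 CPM (SD, n = 12 each), the log2 fold change was 1.27 ± 0.31 (SE, edgeR's quasi-likelihood test, Benjamini-Hochberg adjusted p = 0.00241). Without FFD replicate 3 it was 1.34 (edgeR's adjusted p = 0.00137).

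The lymphocyte receptors Cxcr3 and Cxcr6 were not called. Cxcr3, the receptor of the interferon-induced chemokines Cxcl9, Cxcl10 and Cxcl11, ran from 1.14 over a median of 1.49 to 3.26 CPM on FFD and from 0.204 over 0.778 to 2.40 CPM on control. Control replicate 6 was second highest of all 24 libraries, so only FFD replicate 9 exceeded it, whereas 9 control libraries lay below the lowest FFD library. Mean levels were 1.70 ± 0.617 and 0.937 ± 0.672 CPM (SD, n = 12 each), a log2 fold change of 0.83 ± 0.30 (SE, edgeR's quasi-likelihood test, Benjamini-Hochberg adjusted p = 0.0297). It was 0.86 without FFD replicate 3 (edgeR's adjusted p = 0.0292) and 1.06 without control replicate 6, where it passed both thresholds. Without FFD replicate 9 it was 0.71, the lowest of the 24 fits that left out 1 library. Over those fits the adjusted p of edgeR's test reached 0.0581, and only 1 of them called Cxcr3. With libraries scaled by their totals alone, Cxcr3 also passed, at 1.12 (edgeR's adjusted p = 0.00848), and the median log2 fold change of all genes was then 0.26 instead of -0.03.

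Cxcr6, the receptor of Cxcl16, ran from 0.354 over a median of 1.3 to 2.66 CPM on FFD and from 0.329 over 0.797 to 1.89 CPM on control. The ranges overlapped almost completely, with 2 FFD libraries above the highest control and 1 control library below the lowest FFD library. Means of 1.23 ± 0.635 and 0.912 ± 0.511 CPM (SD, n = 12 each) gave a log2 fold change of 0.42 ± 0.31 (SE, edgeR's quasi-likelihood test, Benjamini-Hochberg adjusted p = 0.296), and 0.47 without FFD replicate 3 (edgeR's adjusted p = 0.247). FFD replicate 9 held the highest level of every one of the 7 receptors among the 24 libraries. In that library 7 pan-leukocyte markers (Ptprc and others) summed to 259 CPM, below the highest FFD library at 308 CPM. Of the fits that left out 1 library, the one without FFD replicate 9 gave the lowest log2 fold change of every receptor but Cxcr4. These were 2.82 for Cx3cr1, 1.99 for Ccr2, 1.625 for Ccr1, 1.10 for Ccr7, 0.71 for Cxcr3 and 0.26 for Cxcr6. No call changed in that fit.

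Levels were compared between genes only per kilobase of merged exon length (CPM per kb). On FFD the order was Cx3cr1 at 2.25 ± 1.4, Cxcr4 at 1.55 ± 0.57, Ccr2 at 1.17 ± 0.53, Cxcr3 at 0.98 ± 0.36, Ccr7 at 0.82 ± 0.46, Cxcr6 at 0.64 ± 0.33 and Ccr1 at 0.30 ± 0.18 CPM per kb (SD, n = 12). Cx3cr1 and Cxcr4, Ccr2 and Cxcr3, Cxcr3 and Ccr7, and Ccr7 and Cxcr6 did not differ by more than the SD of their difference within a library. On control the order began with Cxcr3 at 0.54 ± 0.39 and Cxcr6 at 0.47 ± 0.26 CPM per kb, went on with Cxcr4, Ccr7, Cx3cr1 and Ccr2, and ended with Ccr1 at 0.08 ± 0.08 CPM per kb. There only the step from Ccr2 at 0.27 ± 0.13 CPM per kb to Ccr1 was larger than the SD of the difference.

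The make-up of the receptor pool can be read from the same values. Of the summed CPM per kb of the 7 receptors, Cx3cr1 and Ccr2 together took 29.9% to 61.5% on FFD, with a median of 41.7%, and 12% to 43.4% on control, with a median of 21.6%. Cxcr3 and Cxcr6 together took 10.5% to 32.0% on FFD, with a median of 21.9%, and 23.3% to 57.3% on control, with a median of 45.4%. These shares are a description, since a rise of one receptor lowers the share of the others.

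Whether the receptors differed by more or less than a set of leukocyte markers was asked by scaling each library to the summed counts of 7 pan-leukocyte markers (Ptprc, Itgb2, Coro1a, Laptm5, Cd52, Cd53 and Arhgdib) in place of its total. Those markers summed to 150 to 308 CPM on FFD, with a median of 206, and to 39.7 to 138 CPM on control, with a median of 72.7, and all 7 were called higher on FFD. The sum weighs each marker by its counts. Laptm5 had the most, with a mean of 1015 per library, and the largest log2 fold change of the 7, at 1.75. Ptprc and Arhgdib had means of 305 and 321 counts and log2 fold changes of 1.13 and 1.09. On this scale Cx3cr1 was still called higher on FFD and Cxcr6 was called lower, and the other 5 receptors were not called. Of all genes, 0.77% were called higher and 76.7% lower on this scale, so a lower call is the common outcome and a higher one is rare.

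**Figure D2:**
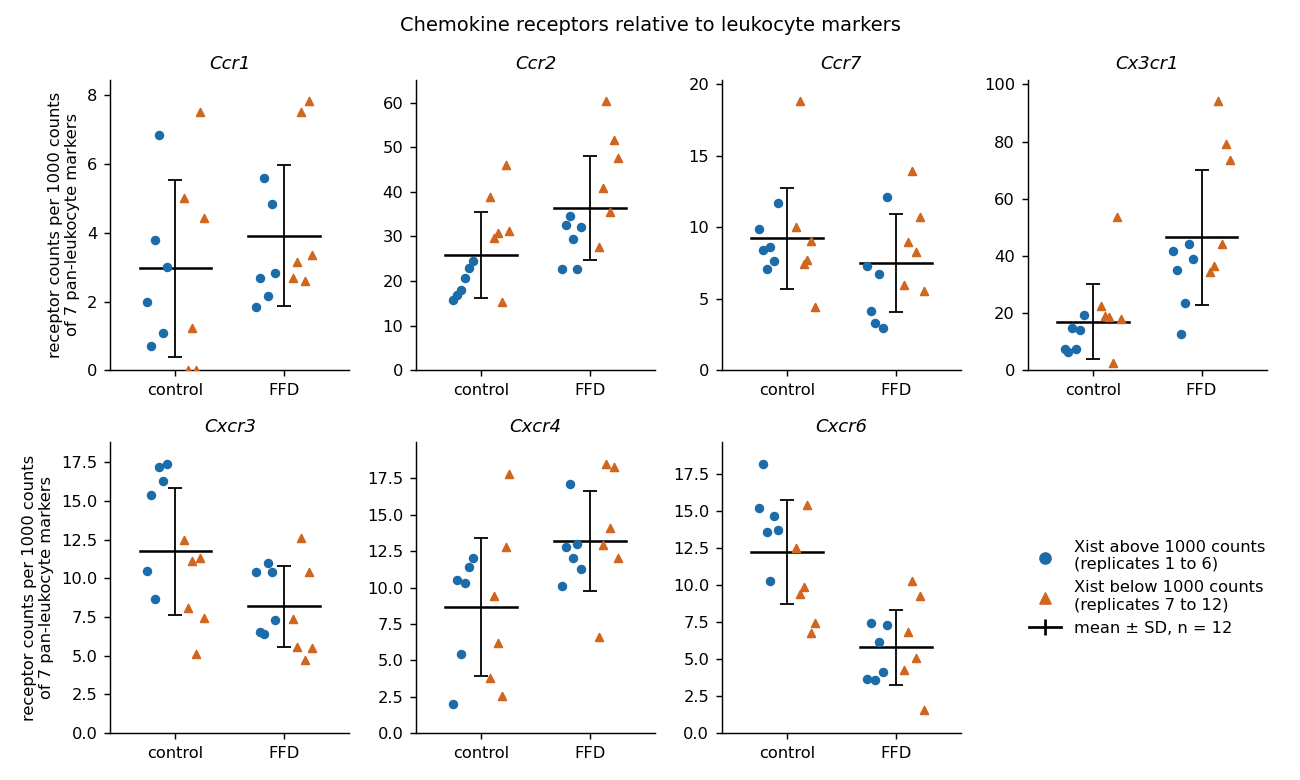
Counts of each receptor per 1000 summed counts of the 7 pan-leukocyte markers (vertical axes, linear, each from 0) in the 12 control and 12 FFD libraries. Circles are Xist-high and triangles Xist-low libraries, and black bars the mean ± SD of each diet (n = 12). The FFD median is above the control median for Cx3cr1 (40.3 against 16.2) and below it for Cxcr6 (5.61 against 13).

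Per 1000 pan-leukocyte counts, Cx3cr1 had 12.7 to 94.1 counts on FFD, with a median of 40.3, and 2.56 to 53.5 on control, with a median of 16.2. The ranges overlapped through control replicate 11 and the lower FFD libraries. The log2 fold change relative to these markers was 1.44 ± 0.33 (SE, edgeR's quasi-likelihood test, Benjamini-Hochberg adjusted p = 0.000152). In fits chosen after seeing the data, it was 1.46 among Xist-high and 1.33 among Xist-low libraries (edgeR's adjusted p = 0.000209 and 0.00202). Without FFD replicate 3 it was 1.53 over all libraries (edgeR's adjusted p = 4.07e-05).

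Per 1000 pan-leukocyte counts, Cxcr6 had 1.58 to 10.3 counts on FFD, with a median of 5.61, and 6.78 to 18.2 on control, with a median of 13. FFD libraries were mostly the lower ones, with 3.57 to 7.45 on FFD against 10.3 to 18.2 on control among Xist-high libraries. On this scale 76.7% of all genes were called lower over all libraries. The log2 fold change was -1.08 ± 0.27 (SE, edgeR's quasi-likelihood test, Benjamini-Hochberg adjusted p = 0.000430). Among Xist-low libraries alone, a fit chosen after seeing the data, it was -0.67 and not called (edgeR's adjusted p = 0.151). With Ptprc as the only reference gene it was -0.68 and not called (edgeR's adjusted p = 0.0264). Without FFD replicate 3 it was -1.03 and called (edgeR's adjusted p = 0.000839).

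Of the receptors not called on this scale, Ccr2 and Cxcr4 had log2 fold changes of 0.50 ± 0.22 and 0.58 ± 0.27 (SE, edgeR's adjusted p = 0.0322 and 0.0499), and both were called with Ptprc as the only reference, at 0.87 and 0.95. The share of all genes called with Ptprc alone was not computed, so these calls have no background. Ptprc itself rose by 1.13 on FFD, less than the median of 1.62 over the 7 markers. With the 7 markers as the scale, Ccr2 was also called when control replicate 11 was left out, at 0.61. Cxcr3 had -0.57 ± 0.24 (edgeR's adjusted p = 0.0295), Ccr7 -0.29 ± 0.27 (edgeR's adjusted p = 0.316) and Ccr1 0.32 ± 0.41 (edgeR's adjusted p = 0.459).

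The difference between diets was then taken within the Xist-high and the Xist-low libraries. Among Xist-high libraries 2 of the 7 receptors, Ccr2 and Cx3cr1, were called higher and 0 lower, against 2.91% and 0.896% of 18071 genes. Both were also called there without FFD replicate 3, at log2 fold changes of 1.27 for Ccr2 and 2.35 for Cx3cr1, and the other 5 were not. Among Xist-low libraries all 7 were called higher, against 14.3% of 18122 genes called higher and 7.89% called lower. The diets did not overlap for Ccr2 and Cxcr4 among Xist-high libraries, a separation seen for 3.48% of genes, and for every receptor but Cxcr6 among Xist-low libraries, where 12.6% of genes separated.

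**Figure D3:**
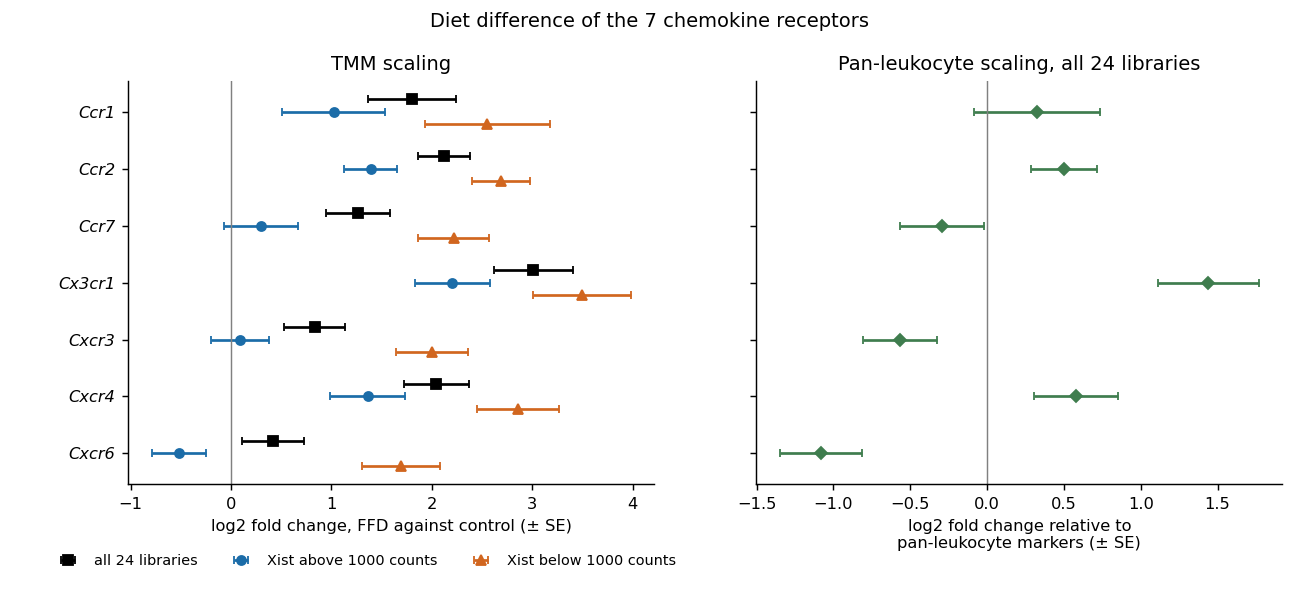
Log2 fold changes, FFD against control, of the 7 receptors (horizontal axes) with their SE. On the left, squares are all 24 libraries, circles the Xist-high and triangles the Xist-low libraries with TMM scaling, and Cxcr6 runs from -0.52 among Xist-high to 1.69 among Xist-low libraries. On the right, diamonds give all 24 libraries scaled to the pan-leukocyte markers, from -1.08 for Cxcr6 to 1.44 for Cx3cr1.

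Cxcr6 went different ways in the Xist-high and the Xist-low libraries. Among Xist-high libraries it ran from 0.614 over a median of 0.871 to 1.3 CPM on FFD and from 0.984 over 1.24 to 1.89 CPM on control, a log2 fold change of -0.52 ± 0.27 that was not called (SE, edgeR's adjusted p = 0.221). Among Xist-low libraries it ran from 0.354 over 1.47 to 2.66 CPM on FFD and from 0.329 over 0.485 to 0.611 CPM on control, a log2 fold change of 1.69 ± 0.39 (SE, edgeR's adjusted p = 0.00347). The control median was lower in the Xist-low set, and FFD replicate 12 alone of the Xist-low FFD libraries stayed within the control range of that set. The diet difference of Cxcr6 was larger by 2.21 ± 0.47 on the log2 scale in the Xist-low set (SE, interaction term of edgeR's quasi-likelihood test, Benjamini-Hochberg adjusted p = 0.00352), where 2.57% of 17913 genes were called in this direction and 1.47% in the other. It was 2.15 without FFD replicate 3 (edgeR's adjusted p = 0.00483).

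Cxcr3 ran from 1.14 over a median of 1.45 to 1.79 CPM on FFD and from 0.769 over 1.36 to 2.40 CPM on control among Xist-high libraries, with the FFD libraries inside the control range. Among Xist-low libraries it ran from 1.14 over 1.78 to 3.26 CPM on FFD and from 0.204 over 0.436 to 0.850 CPM on control, and the diets did not overlap. The log2 fold changes were 0.09 ± 0.29 and 2.0 ± 0.36 (SE, edgeR's adjusted p = 0.882 and 0.000613). Their difference was 1.90 ± 0.46 (SE, interaction term, edgeR's adjusted p = 0.00906), and it was called in 6 of the 24 fits that left out 1 library, those without FFD replicate 8 or 12 or control replicate 1, 2, 3 or 11. Without any 1 of the other 18 libraries the call was lost, with an adjusted p of up to 0.0221.

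Ccr7 had log2 fold changes of 0.30 ± 0.37 among Xist-high and 2.22 ± 0.35 among Xist-low libraries (SE, edgeR's adjusted p = 0.652 and 0.000234). The difference of 1.91 ± 0.52 was not called (edgeR's adjusted p = 0.0198). It was called at 2.24 without FFD replicate 6 (edgeR's adjusted p = 0.00580). Ccr2 had 1.39 ± 0.26 and 2.69 ± 0.29, with a difference of 1.29 ± 0.40 that was called only without control replicate 11, at 1.64 (edgeR's adjusted p = 0.0408 and 0.00354). For Cx3cr1 the values were 2.21 ± 0.37 and 3.50 ± 0.48, for Cxcr4 1.36 ± 0.38 and 2.86 ± 0.41, and for Ccr1 1.03 ± 0.51 and 2.55 ± 0.62, with differences between the sets that were not called (edgeR's adjusted p = 0.226, 0.107 and 0.276).

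The leukocyte markers moved with these set differences. On control the pan-leukocyte sum was 70.8 to 138 CPM among Xist-high and 39.7 to 75.2 CPM among Xist-low libraries, and on FFD it was 150 to 209 and 206 to 308 CPM. Of the 7 pan-leukocyte markers 3 were called higher on FFD among Xist-high and 7 among Xist-low libraries. Ptprc itself had a larger diet difference in the Xist-low set, by 1.52 on the log2 scale (interaction term, edgeR's adjusted p = 0.000131). With the pan-leukocyte sum as the scale, 0 of the 7 receptors were called in the interaction in either direction, against 0.106% of genes called higher and 61.2% called lower. Of the 7, 0 had an unadjusted p under 0.05 there. There the difference between the sets was 0.73 for Cxcr6 and 0.41 for Cxcr3 (edgeR's adjusted p = 0.208 and 0.433). In these data the sex of the mice and any other feature that divides replicates 1 to 6 from 7 to 12 cannot be told apart.

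Other genes of the chemokine system were read from lists. Of 16 other chemokine receptors 13 passed the filter on low counts, 3 of them rose and 0 fell (0 lower at an unadjusted p under 0.05, and 5 higher and 0 lower by DESeq2), with a median log2 fold change of 1.07. Among them were Ackr3, a scavenger of Cxcl12, at 1.23 ± 0.26, and Ackr1, which binds many chemokines on endothelium, at 1.07 ± 0.18 (SE, edgeR's adjusted p = 0.000609 and 4.73e-05). The mean level of Ackr1 was 1.87 ± 0.471 CPM on FFD and 0.879 ± 0.257 CPM on control (SD, n = 12 each). Ccrl2 and Ackr2, those with the most counts among the uncalled, had 0.34 and 0.72 (edgeR's adjusted p = 0.0433 and 0.0171). Without FFD replicate 3, which held 112 of its 873 counts, Ackr2 had 0.50 (edgeR's adjusted p = 0.0416).

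Of 16 ligands of the receptors 11 rose and 0 fell, as by DESeq2, and 1 was lower at an unadjusted p under 0.05. Their median log2 fold change was 1.33. Ccl2 and Ccl7, ligands of Ccr2, had 3.15 ± 0.32 and 2.59 ± 0.51, Ccl3, a ligand of Ccr1, had 3.07 ± 0.54, and Cx3cl1, the ligand of Cx3cr1, had 2.44 ± 0.39 (SE, edgeR's adjusted p = 2.08e-07, 0.000282, 8.04e-05 and 3.18e-05). Ccl4, Ccl5, Ccl6, Ccl19, Cxcl9, Cxcl10 and Cxcl16 were the other ligands that rose. Ccl3 and Ccl7 averaged 0.0647 and 0.147 CPM on control, under the 0.175 CPM of 3 counts, so few reads set their fold changes. Cxcl12, the ligand of Cxcr4 and the list's most counted gene, averaged 264 ± 38.9 CPM on FFD and 353 ± 77.7 CPM on control (SD, n = 12 each). Its log2 fold change of -0.42 ± 0.11 was under the fold threshold (edgeR's adjusted p = 0.00523), while its receptor Cxcr4 was called higher. Cxcl16 had 1.57 ± 0.21 (edgeR's adjusted p = 3.71e-06), while its receptor Cxcr6 was not called. Ccl9, with the next most counts, had -0.12 (edgeR's adjusted p = 0.626).

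Of 18 signalling genes downstream of the receptors 12 rose and 0 fell, as by DESeq2, and 1 was lower at an unadjusted p under 0.05. Their median log2 fold change was 1.05. Elmo1 and Dock2, which together activate Rac in migrating leukocytes, had 1.86 ± 0.25 and 1.62 ± 0.22 (SE, edgeR's adjusted p = 4.47e-06 and 4.96e-06). Rgs1 and Rgs19, which shorten G protein signals, had 1.83 ± 0.33 and 1.72 ± 0.23 (SE, edgeR's adjusted p = 0.000130 and 3.61e-06). The widely expressed G protein subunits Gnb2 and Gnai3 had 0.16 and -0.27 and were not called (edgeR's adjusted p = 0.0949 and 0.0204).

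**Figure D4:**
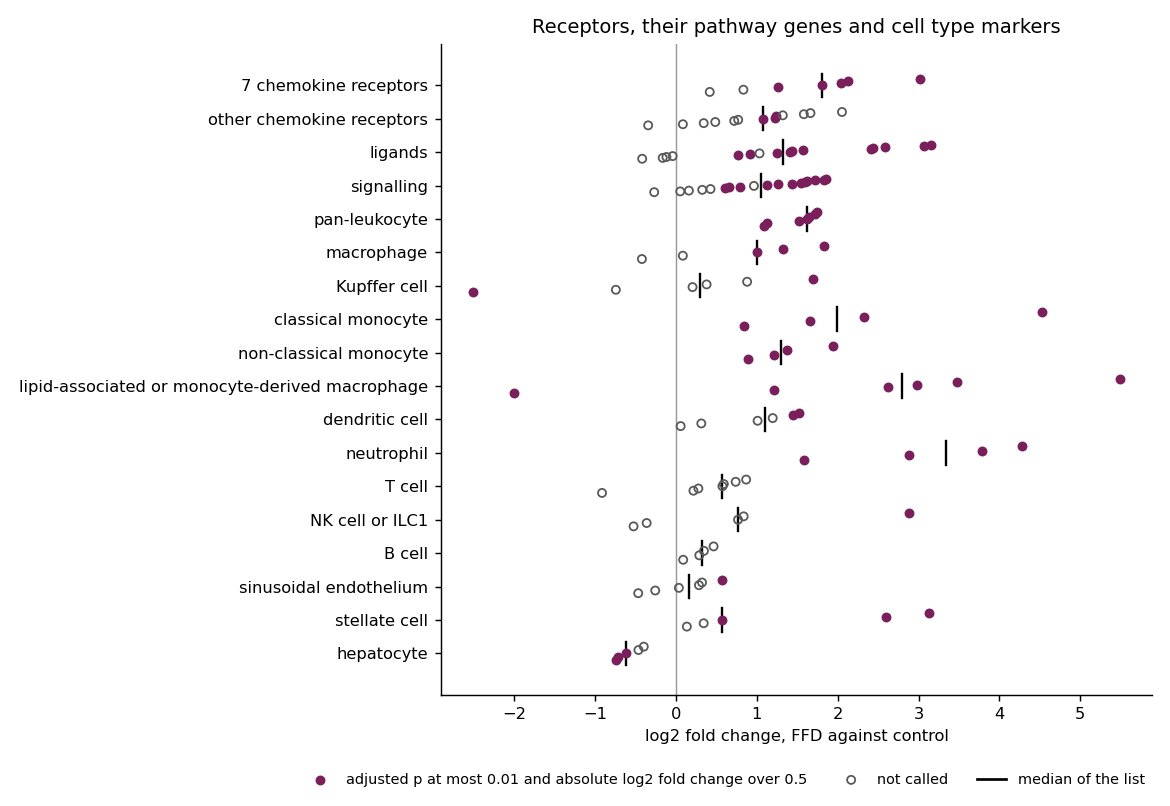
Log2 fold change, FFD against control (horizontal axis), of the 7 receptors, of the tested genes of 3 pathway lists and of 14 cell type marker lists. Filled points passed both thresholds of a call, open points did not, and black lines are list medians. The receptor median is 1.81, the pan-leukocyte median 1.62 and the T cell median 0.57.

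Markers of the cell types that carry these receptors were counted on the same fit. Of the classical monocyte markers 4 of 4 rose, from Plac8 at 0.84 ± 0.20 to Chil3 at 4.53 ± 0.95, with summed levels of 9.37 to 76.7 CPM on FFD and 4.54 to 13.7 CPM on control. Chil3 averaged 0.145 CPM on control, under the 0.175 CPM of 3 counts. FFD replicate 3 held the 76.7 CPM and 652 of the 880 Chil3 counts, and the other FFD libraries reached 20.3 CPM. Without it all 4 still rose, with log2 fold changes of 2.45 for Chil3, 1.67 for F13a1, 1.09 for Ly6c2 and 0.71 for Plac8 (edgeR's adjusted p = 0.00168, 0.00487, 0.000566 and 0.00400). Among Xist-high libraries 0 of these 4 were called and among Xist-low libraries 3, against 2.91% and 14.3% of all genes called higher. Of the non-classical monocyte markers 4 of 4 rose, with Ace highest at 1.94 ± 0.28 and sums of 16.6 to 36.9 against 4.68 to 15.9 CPM. Among Xist-high libraries 2 of them were called and among Xist-low libraries 4. Of 6 markers of lipid-associated or monocyte-derived macrophages 5 rose, led by Gpnmb at 5.49 ± 0.55 and Trem2 at 3.47 ± 0.35, and Fabp5 fell. Among Xist-high libraries 3 of these 6 rose and 0 fell, and among Xist-low libraries 5 rose and 1 fell. All these values are log2 fold changes ± SE. The sums overlapped between the diets for classical monocytes and for lipid-associated macrophages, the latter with 186 to 953 against 72.1 to 293 CPM. They did not overlap for non-classical monocytes. The same held for the pan-leukocyte, dendritic cell and other chemokine receptor lists, and no background share was computed for sums.

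Of 5 macrophage markers 3 rose (Cd68, Adgre1 and Csf1r), 1 of the list being called higher among Xist-high and 3 among Xist-low libraries. Of 6 Kupffer cell markers Cd5l rose and Cd163 fell, with Clec4f and Vsig4 at log2 fold changes of 0.20 and 0.38 and not called. Marco, also not called, had 0.88 over all libraries and -0.49 without FFD replicate 3, which held 2210 of its 5403 counts. Of 5 neutrophil markers 4 passed the filter and rose, and 3 did without FFD replicate 3. Within the sets, 1 of these markers was called higher among Xist-high and 3 among Xist-low libraries. Their sum was 6.17 to 165 CPM on FFD, where 165 is that library and the others reached 13.9 CPM, and 1.73 to 6.97 CPM on control. Without it S100a8 and S100a9 had log2 fold changes of 1.55 and 1.0, instead of 4.28 and 3.79, and Retnlg was not called. Of 6 dendritic cell markers 2 rose, Fscn1 at 1.53 ± 0.19 and Flt3 at 1.45 ± 0.31 (SE). Without FFD replicate 3 Cd209a was called as well, at 1.09 (edgeR's adjusted p = 0.00991), against 1.01 over all libraries.

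The lymphocyte lists were at low levels. None of 7 T cell markers was called by edgeR over all libraries, with a summed level of 2.90 to 8.67 CPM on FFD and 2.65 to 10.5 CPM on control, and 3 of the 7 were called higher among Xist-low libraries. At an unadjusted p under 0.05, 1 T cell marker was higher and 1 lower, and DESeq2 called 0. Cd4 and Cd8a had log2 fold changes of -0.92 and 0.74 (edgeR's adjusted p = 0.103 and 0.263). Of 5 NK cell or ILC1 markers 1 rose, the transcription factor Eomes at 2.88 ± 0.66. Eomes averaged 0.0357 CPM on control, under the 0.175 CPM of 3 counts, so few reads set its fold change. The sums of this list were 0.647 to 2.48 CPM on FFD and 0.102 to 3.05 CPM on control. For B cells, 0 of 4 markers were called by edgeR or DESeq2 or had an unadjusted p under 0.05. The part of each cell type in the receptor levels was not tested.

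Of the other liver cells, 3 of 5 stellate cell markers rose, led by Col1a1 and Col3a1 at log2 fold changes of 3.12 ± 0.42 and 2.60 ± 0.30, 1 of 6 sinusoidal endothelial markers rose (Stab2, not called without FFD replicate 3), and 3 of 5 hepatocyte markers fell (Apoa1, Alb and Ttr, by 0.74, 0.72 and 0.62 on the log2 scale). The hepatocyte markers summed to 34700 to 88400 CPM on FFD and 78500 to 125000 CPM on control, which shows the labelled tissue. The part of this difference in the receptor levels was not tested.

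The genes whose levels ran most like each receptor over the 24 libraries were found by Pearson's r of log2(CPM + 1) after the diet means were subtracted, among 13769 genes, with no test. All points share their library, its depth and its scaling. Only the diet means were subtracted, so differences between the Xist-high and Xist-low sets remain in these values and can raise r. On FFD, Cx3cr1 ran from 2.66 to 7.23 CPM among Xist-high and from 7.48 to 24.3 CPM among Xist-low libraries. The genes nearest to Cx3cr1 were Olfml3 (0.948), Col6a3 (0.942) and Loxl1 (0.926), the last a lysyl oxidase and Col6a3 a collagen chain. For Ccr2 they were Gprc5b (0.883), Dbn1 (0.882) and Pknox2 (0.882), and for Cxcr4 Napsa (0.869), Cd9 (0.815) and Naaa (0.815).

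For Ccr7 the nearest were Pygb (0.871), Relb (0.868), an NF-kappaB subunit, and P3h3 (0.847). For Ccr1 they were Rasl11a (0.820), Mpzl1 (0.808) and Tmem136 (0.807). For Cxcr3 they were Tbc1d9 (0.865), Ctps2 (0.831) and Tlnrd1 (0.820). Cxcr6 ran with Tbc1d10c (0.833), Gimap3 (0.824), a GTPase of lymphocytes, and Ctsw (0.808), a cathepsin of cytotoxic lymphocytes.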

How the data were processed

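Whole-liver poly(A) RNA was sequenced in 24 libraries. Values deposited by the authors are raw counts per Ensembl gene, in 1 table. The submitters' processing notes name bcl2fastq, STAR 2.7.3a and mm10. The study's methods name counting programs for human reads, and those and the annotation used for the mouse libraries are not given in the sources used here. Symbols, GRCm38 positions and exon lengths came from GENCODE M21, which held 51745 of the 56205 gene IDs, and the other 4460 IDs held 0.0723% of the counts. Promoter sequences are RefSeq's, in GRCm38.p6.

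Diet differences were estimated from the deposited counts in R 4.3.3 by the quasi-likelihood test of edgeR 4.0.16, with TMM scaling, the diet as the only term and Benjamini-Hochberg adjustment over 17913 genes. These were the genes seen, with 1 count or more, in 12 or more libraries. A standard error is the size of a log2 fold change over the square root of its F statistic. A call used the thresholds of the study, a log2 fold change of more than 0.5 in size and an adjusted p no higher than 0.01. The scripts were tested on simulated data. Between any pair of libraries of one diet the chi-square per degree of freedom was at least 10.1 (FFD) or 18.4 (control), so no library was counted as a copy of another. Low levels carry a large counting error.

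The receptors, lists, motifs and tests were chosen with earlier results of these data known. All 7 receptors were to be named, with the 4 called genes of each list that had the largest absolute log2 fold change, the 2 uncalled genes with the most counts, and the 3 genes most like each receptor (mean of at least 10 counts). Other genes were named after their values were seen. The result of 1 gene of the lists is not reported here. Alternatives were DESeq2 1.42.0, limma-voom (limma 3.58.1), 2 other scalings, 3 other filters, 2 other thresholds, a block for the replicate number, the Xist set as a term and each library left out. Same-numbered libraries correlated at -0.0961 to 0.578, so the numbers were not taken as pairs.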

Additional observations from a re-analysis of the deposited data

Results flagged for a closer look

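The diet difference of Cxcr6 differed between the Xist-low and the Xist-high libraries by 2.21 on the log2 scale (interaction term of edgeR's quasi-likelihood test, Benjamini-Hochberg adjusted p = 0.00352), with 5 of 6 Xist-low FFD libraries above every Xist-low control and 0 of 6 Xist-high FFD libraries above every Xist-high control. That of Cxcr3 differed by 1.90 (edgeR's adjusted p = 0.00906), with 6 of 6 and 0 of 6 libraries above, and this call was lost without any 1 of 18 libraries. Neither difference was called when libraries were scaled to the pan-leukocyte markers. On that scale 0.106% of genes were called higher and 61.2% lower in the interaction, so a missing higher call is the common outcome there.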

How the results depend on the processing

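All alternatives that gave a value kept the count of receptors called higher on FFD within 1.5 times of 5, except the fit within the Xist-high libraries, with 2, where the log2 fold change of Cxcr6 reversed to -0.52 (2 and -0.46 without FFD replicate 3, a fit chosen after seeing the data). With edgeR's filterByExpr it was 4, because Ccr1 was removed by that filter, and 14.4% of 13567 genes were called higher. The count was 5 to 6 with 1 library left out, and 0 receptors were called lower in any of these fits. Cxcr3 was also called by limma-voom (1.02), without control replicates 6 and 11 together (1.06), with library totals, and at an adjusted p of at most 0.05. Without FFD replicate 9 its log2 fold change fell to 0.71 and it was not called. Scaling by library totals moved the calls over all genes from 2372 higher and 894 lower (72.6% higher) to 3827 and 226 (94.4%), and the marker genes called lower from 5 to 2. DESeq2 called 5 other chemokine receptors higher instead of 3. Requiring 10 counts in every library left 0 of the 7 receptors, so it gave no value.

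Relative to the pan-leukocyte markers, 1 receptor was called higher and 1 lower. With Ptprc alone these were 3 and 0, and Ccr7 reversed to 0.10. The share of all genes called with Ptprc alone was not computed. Within the Xist-low libraries, a fit chosen after seeing the data, 0 were called lower. Leaving out 1 library gave 1 to 2 higher and 1 lower. The interaction called 2 receptors, 1 to 3 with 1 library left out, and 3 with DESeq2 or library totals, Ccr7 being the added one. The shares of all genes called in those alternative fits of the interaction were not computed. With the pan-leukocyte sum as the scale, also chosen after seeing the data, the interaction called 0, and Ccr2 and Cx3cr1 reversed to -0.13 and -0.14. The causes were not tested.

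With the replicate number as a block, 4 receptors were called higher, Ccr7 being lost (log2 fold change 1.19, adjusted p = 0.0120 by edgeR), and no other receptor call changed. In that fit 11.5% of all genes were called higher and 4.71% lower. Only 2 FFD libraries correlated best with the control library of their own number. At this depth the control levels of Ccr1, at 3 or fewer counts in 7 libraries, limit the precision of its fold change.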
